A study of Mus musculus with 45 samples.

Results

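Il17b, which encodes the secreted cytokine IL-17B, and the 5 genes of the IL-17 receptor family (Il17ra, Il17rb, Il17rc, Il17rd and Il17re) were followed across 15 mouse mammary tumour cell lines. These 6 genes were taken by symbol from the 54838 genes of the count table. Il17b was chosen by its measured level, which earlier results of these data had shown to be high in some lung-derived lines, so its levels by site, origin and line are given as a description with no test. The receptors were taken as the whole family, with earlier results of these data known, and were tested.

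IL-17 family cytokines are dimers that signal through pairs of single-pass receptors carrying a SEFIR domain, which recruits the adaptor Act1 and leads to NF-kB activity and stabilised chemokine transcripts. IL-17B binds IL-17RB, a chain that IL-17B shares with IL-25, and IL-17RB works together with IL-17RA, the chain common to most family members. IL-17RC pairs with IL-17RA for IL-17A and IL-17F, IL-17RE pairs with IL-17RA for IL-17C in epithelial cells, and IL-17RD, also called Sef, modulates both FGF and IL-17 signalling. IL-17B and IL-17RB have been studied in breast tumour cells, and IL-17C with IL-17RE in epithelial barriers.

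The lines were all PyMT+ mammary tumour lines from mice in which the mouse mammary tumour virus promoter drives the polyoma middle T oncogene in mammary epithelium, and no line without the oncogene was included. The 2 parental lines, YEJG and YEJH, came from primary mammary tumours. The other 13 were derived from them after growth in mice, 6 from fat-pad tumours (1 of YEJG, YEJG-FP, and 5 of YEJH, YEJH-FP1 to YEJH-FP5) and 7 from the lung (YEJG-M1, YEJG-M2 and YEJH-M1 to YEJH-M5). YEJH-M3 was labelled as coming from lung metastases and the other lung lines from whole lung. The study's text has the lung lines grown from small metastases found after the primary tumour had been removed. It names fewer mice than there are lung lines here, and the labels do not give the animal of each line. Lung lines may therefore share animals with fat-pad lines or with each other. Each line was read in 3 technical repeats, which were averaged or summed, so n counts lines throughout, and the p-values measure the spread between lines, which are not shown to come from separate animals. The YEJG fat-pad group is a single line, so that any YEJG site difference rests on 1 line against 2. The 45 libraries held between 9723860 and 16943900 reads on genes, and the samples were bulk cultures, in which a change in the share of cells expressing a gene cannot be told apart from a change per cell. Luminal epithelial markers were high in every line (a summed 2778 to 7062 CPM, reads scaled to the library total, over Epcam, Cdh1, Krt8, Krt18 and Krt19). Of 5 lung epithelial markers, Sftpc, Sftpb, Sftpa1 and Scgb1a1 were at 0 in all 7 lung lines. The 5 together summed to 0.110 to 0.406 CPM in lung lines and 0.149 to 0.216 CPM in fat-pad lines. The 6 leukocyte markers summed to at most 0.250 CPM in any derived line. The 5 fibroblast markers summed to 2.56 to 52.6 CPM in lung lines and 3.83 to 5.45 CPM in fat-pad lines.

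On the GRCm39 build Il17ra (chromosome 6, 120440104 to 120464520), Il17rc (chromosome 6, 113448388 to 113460103), Il17re (chromosome 6, 113435445 to 113447719) and Il17rd (chromosome 14, 26760889 to 26829243) are on the plus strand, and Il17rb (chromosome 14, 29716082 to 29730956) is on the minus strand. Il17re and Il17rc are neighbours, with 668 bases between the end of the first and the start of the second. Of the exonic bases of Il17rb, 2472 (38.8%) are also exonic in Actr8 on the other strand, and 101 are exonic in Chdh. The library kit does not mark strand, so that reads of Il17rb and of these neighbours cannot be told apart in the shared bases and the Il17rb values are uncertain to that extent. How reads in shared bases were counted is not given in the sources used here. If they were left out, the Il17rb level per kilobase, taken over all its exonic bases, would be too low. Il17rc and Il17rd overlap the long non-coding RNA genes Gm57002 and Gm62945, with the same limit wherever their exons coincide.

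RefSeq promoter sequences (GRCm38.p6) were matched for 4 of the 6 genes, Il17rb, Il17rc, Il17rd and Il17re. Their starts are those of RefSeq on another build, and they need not be the gene starts given above. The 250 bases upstream of the start are shown for Il17re and Il17rc, the adjacent genes that differed in opposite directions between YEJG-derived and YEJH-derived lines, and for Il17rd, which was lower both in YEJG-derived lines and in derived against parental lines. They run from 113458521 to 113458770 for Il17re and from 113471205 to 113471454 for Il17rc (both chromosome 6), and from 27038751 to 27039000 on chromosome 14 for Il17rd, all on the plus strand and written 5′ to 3′. Capitals mark GGGCGG or TATAAA on either strand.
Il17re: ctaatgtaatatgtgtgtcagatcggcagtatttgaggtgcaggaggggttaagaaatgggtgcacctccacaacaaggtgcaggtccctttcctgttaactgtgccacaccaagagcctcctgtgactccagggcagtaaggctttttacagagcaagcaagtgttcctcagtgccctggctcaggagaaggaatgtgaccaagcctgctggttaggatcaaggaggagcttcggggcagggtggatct
Il17rc: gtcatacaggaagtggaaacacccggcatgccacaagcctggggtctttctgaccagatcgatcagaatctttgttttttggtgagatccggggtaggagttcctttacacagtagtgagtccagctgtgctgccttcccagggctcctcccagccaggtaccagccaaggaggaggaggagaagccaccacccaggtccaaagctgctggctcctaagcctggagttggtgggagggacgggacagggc
Il17rd: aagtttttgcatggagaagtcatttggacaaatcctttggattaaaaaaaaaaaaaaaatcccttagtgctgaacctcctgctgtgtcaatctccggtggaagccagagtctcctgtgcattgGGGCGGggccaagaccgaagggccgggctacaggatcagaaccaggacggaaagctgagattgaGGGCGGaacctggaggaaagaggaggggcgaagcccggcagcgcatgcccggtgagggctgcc
The upstream sequences of Il17re and Il17rc held 2 and 4 CG dinucleotides, against a median of 6 over 32851 promoters, and neither held GGGCGG, a sequence present in 32.7% of promoters. Il17rd had 10 CG dinucleotides and 2 copies of GGGCGG, and Il17rb had 27 CG dinucleotides and 1 copy. TATAAA, present in 12.4% of promoters, was found in none of the 4. These matches describe the letters in this window only.

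Il17b was close to absent outside the lung lines. Of 745 reads on Il17b in the whole series, 95.3% came from lung lines, and the parental lines YEJG and YEJH and the fat-pad line YEJG-FP had 0 reads in all their libraries. The 5 YEJH fat-pad lines carried traces, with means of 1.03 (YEJH-FP1), 2.10 (YEJH-FP2), 2.34 (YEJH-FP3), 3.35 (YEJH-FP4) and 2.48 (YEJH-FP5) normalised counts per library, where counts were scaled by trimmed mean of M values (TMM) to a common library size. These rest on 3 to 10 reads summed over the 3 libraries of a line.

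The lung lines spread over a wide range. YEJH-M2 was highest, with 87.6, 104 and 88.9 normalised counts in its libraries and a mean of 93.5 ± 9.05 (SD of 3 technical repeats, as for each line below). YEJH-M5 followed with 55.9, 55.8 and 71.9, a mean of 61.2 ± 9.25. YEJG-M1 had 35.1, 39.5 and 36.2, a mean of 36.9 ± 2.32. The repeats of these 3 lines did not overlap, so their order held in every library.

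YEJH-M1 had 20.8, 23.7 and 9.05 normalised counts of Il17b, a mean of 17.8 ± 7.75. YEJH-M3 had 12.2, 16.4 and 16.3, a mean of 15 ± 2.43. The repeats of these neighbouring lines overlapped, and both lay below YEJG-M1 in every library and above the fat-pad lines. YEJH-M4, with 5.01, 3.92 and 0.881 (mean 3.27 ± 2.14), and YEJG-M2, with 3.26, 1.70 and 0 (mean 1.65 ± 1.63), lay within the range of the fat-pad lines. Thus 5 of 7 lung lines were above every fat-pad line and the other two were not. The same order of line groups was seen at both dates carried by the library names (runs A and B), with each line represented in each (the plot of Il17b by library).

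**Figure D1:**
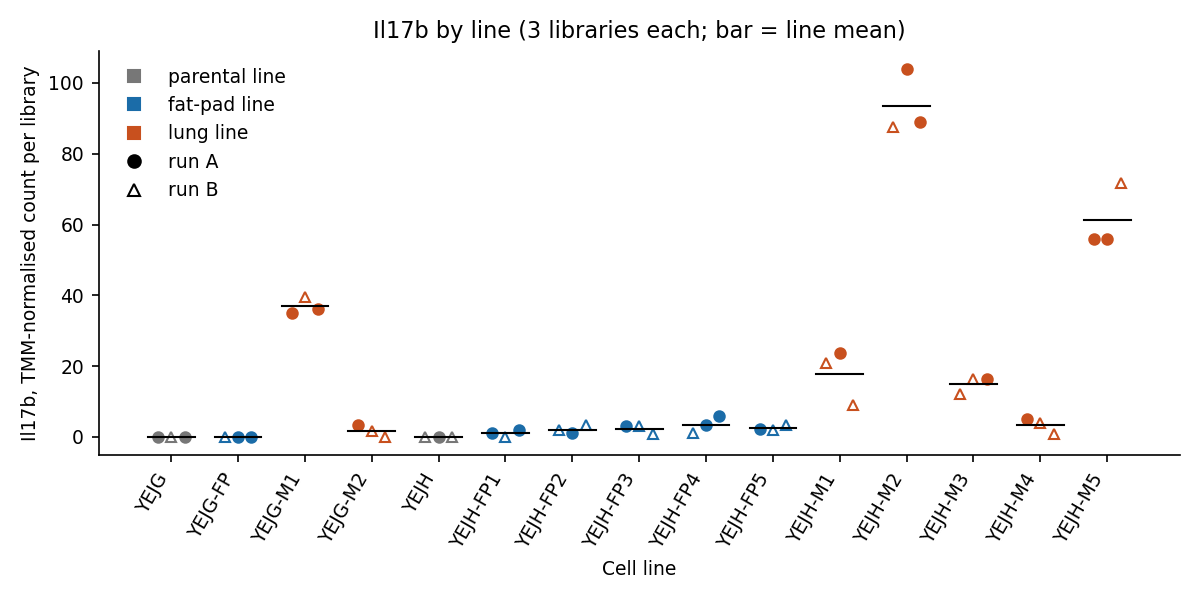
Il17b by cell line, in TMM-normalised counts per library (linear axis); each symbol is 1 of 3 technical repeats, filled circles and open triangles are the 2 library runs, colours are the site, and horizontal bars are line means. The means of YEJH-M2, YEJH-M5 and YEJG-M1 are 93.5, 61.2 and 36.9, whereas YEJH-M4 and YEJG-M2 sit with the fat-pad lines.

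The mean of Il17b was 32.8 ± 33.9 (SD, n = 7 lines) in lung lines and 1.88 ± 1.19 (n = 6) in fat-pad lines, a ratio of 17.4 between means, with a lung SD as large as its mean. Of all lung-line reads, 69.4% were from YEJH-M2 and YEJH-M5. Within YEJH the means were 38.1 ± 37.9 (n = 5) and 2.26 ± 0.833 (n = 5), a ratio of 16.9, and 4 of 5 lung lines were above all fat-pad lines. Within YEJG the lung lines differed by 22.3 times from each other, and the fat-pad line was at 0.

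Each lung line was also set against its own parental line, which had 0 reads, using a floor of 3 reads over the 3 parental libraries. On the CPM scale YEJH-M2 was at least 89.0-fold higher than YEJH, YEJH-M5 at least 59.1-fold, YEJH-M1 at least 17.2-fold and YEJH-M3 at least 14.1-fold. YEJG-M1 was at least 34.7-fold higher than YEJG. YEJH-M4 and YEJG-M2 stood at 3.08 and 1.46 times the floor, on 10 and 5 reads. Their exact Poisson 95% intervals were 4.80 to 18.4 and 1.62 to 11.7 reads, so these ratios are not lower bounds. Intervals and floors cover counting error only, and the folds take each line's own count without its interval. The YEJH fat-pad lines FP2 to FP5 stood at 2.15 to 3.30 times the floor of YEJH, again not lower bounds (7 reads in FP2, interval 2.81 to 14.4). YEJH-FP1, with 3 reads, was at the floor.

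The spread of Il17b between lines follows from how it was chosen and is given as a description. Its SD between the 15 lines was 171% of its mean, against a repeat SD of 25.8%. The corresponding SD between lines was 12% of the mean for Il17ra, 20.7% for Il17rc and 34.1% for Il17re, each above its repeat SD (6.81%, 8.13% and 9.25%). For Il17rb the SD between lines was 31.3% and the repeat SD 32.1%, and for Il17rd the values were 43.2% and 37.1%. The SD between lines is taken over line means, each an average of repeats, whereas the repeat SD is that of single libraries. Averaging reduces the repeat noise in a line mean, so these SDs are not on the same scale. Their near-equal values for Il17rb therefore do not show that its lines differed no more than repeats.

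The 5 genes most like Il17b over the 15 lines, by Pearson correlation of log2 CPM with a prior count of 1 across 17109 genes, were Armcx4 (r = 0.83), Slc4a8 (0.82), Nr1d2 (0.82), Tle2 (0.81) and Tmem231 (0.79). These coefficients are the top of a long search on a gene with few reads and are given as a description. Armcx4 had 30.7 normalised counts in YEJG-M1 and 24.7 in YEJH-M2, 11.7 in YEJH-M5, and at most 9.19 in a fat-pad line. Its order was not that of Il17b, since YEJH-M4 (10.8) exceeded YEJH-M1 (2.43).

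Il17b lies on the plus strand of chromosome 18 from 61817958 to 61825609 (GRCm39), and its 6 nearest protein-coding neighbours, 3 on each side, did not share its pattern. It also overlaps the long non-coding RNA gene Gm38165, whose reads cannot be told apart from those of Il17b wherever exons coincide. Pcyox1l, whose gene starts 3647 bases beyond the end of Il17b, had 144 to 262 normalised counts in lung lines and 134 to 156 in fat-pad lines (r = 0.20 with Il17b on log2 values plus 1, over 15 lines). Grpel2 and Csnk1a1 had overlapping ranges at the sites (r = 0.014 and -0.029). Afap1l1 had r = 0.34, Arhgef37 r = -0.21 and Ppargc1b r = -0.43.

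The other IL-17 ligands were low or unread. Il17a and Il25 had 0 reads in all 45 libraries, which allows up to 0.00473 CPM over the series, and Il17c and Il17f had 16 and 10 reads in total. Il17d, a further ligand of the family, was the only other ligand that passed the filter on low counts. It had 28.8 normalised counts in YEJG-FP, 10.8 and 10.7 in YEJG-M1 and YEJG-M2, and 25.4 to 36.7 in the YEJH-derived lines. With site in the model Il17d was lower in YEJG-derived lines (log2 fold change -0.92 ± 0.24 SE, edgeR adjusted p = 0.0083), beside 40.8% of all genes called. That call was lost without YEJG-M1 (adjusted p = 0.063) and without YEJG-M2 (0.062). Parental YEJG and YEJH had 32.6 and 31.7 normalised counts.

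Among the receptors, Il17ra and Il17rc were the most abundant. Per kilobase of exon, Il17ra ranged from 4.43 to 6.74 CPM, Il17rc from 7.51 to 16.5 CPM and Il17re from 0.704 to 4.03 CPM over the 15 lines. Il17rb and Il17rd lay far below, at 0.0412 to 0.158 and 0.0227 to 0.169 CPM per kb. On the same per-length scale Il17b reached 6.66 CPM per kb in YEJH-M2, where Il17rb, the chain that binds IL-17B, stood at 0.0717. The transcript level of Il17rb was thus 0.0108 of that of Il17b in YEJH-M2, and 1.01 times it in YEJG-M2, the lung line with the least Il17b. These ratios use all exonic bases of Il17rb, including those shared with Actr8 and Chdh, and may be too low if reads there were not counted.

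**Figure D2:**
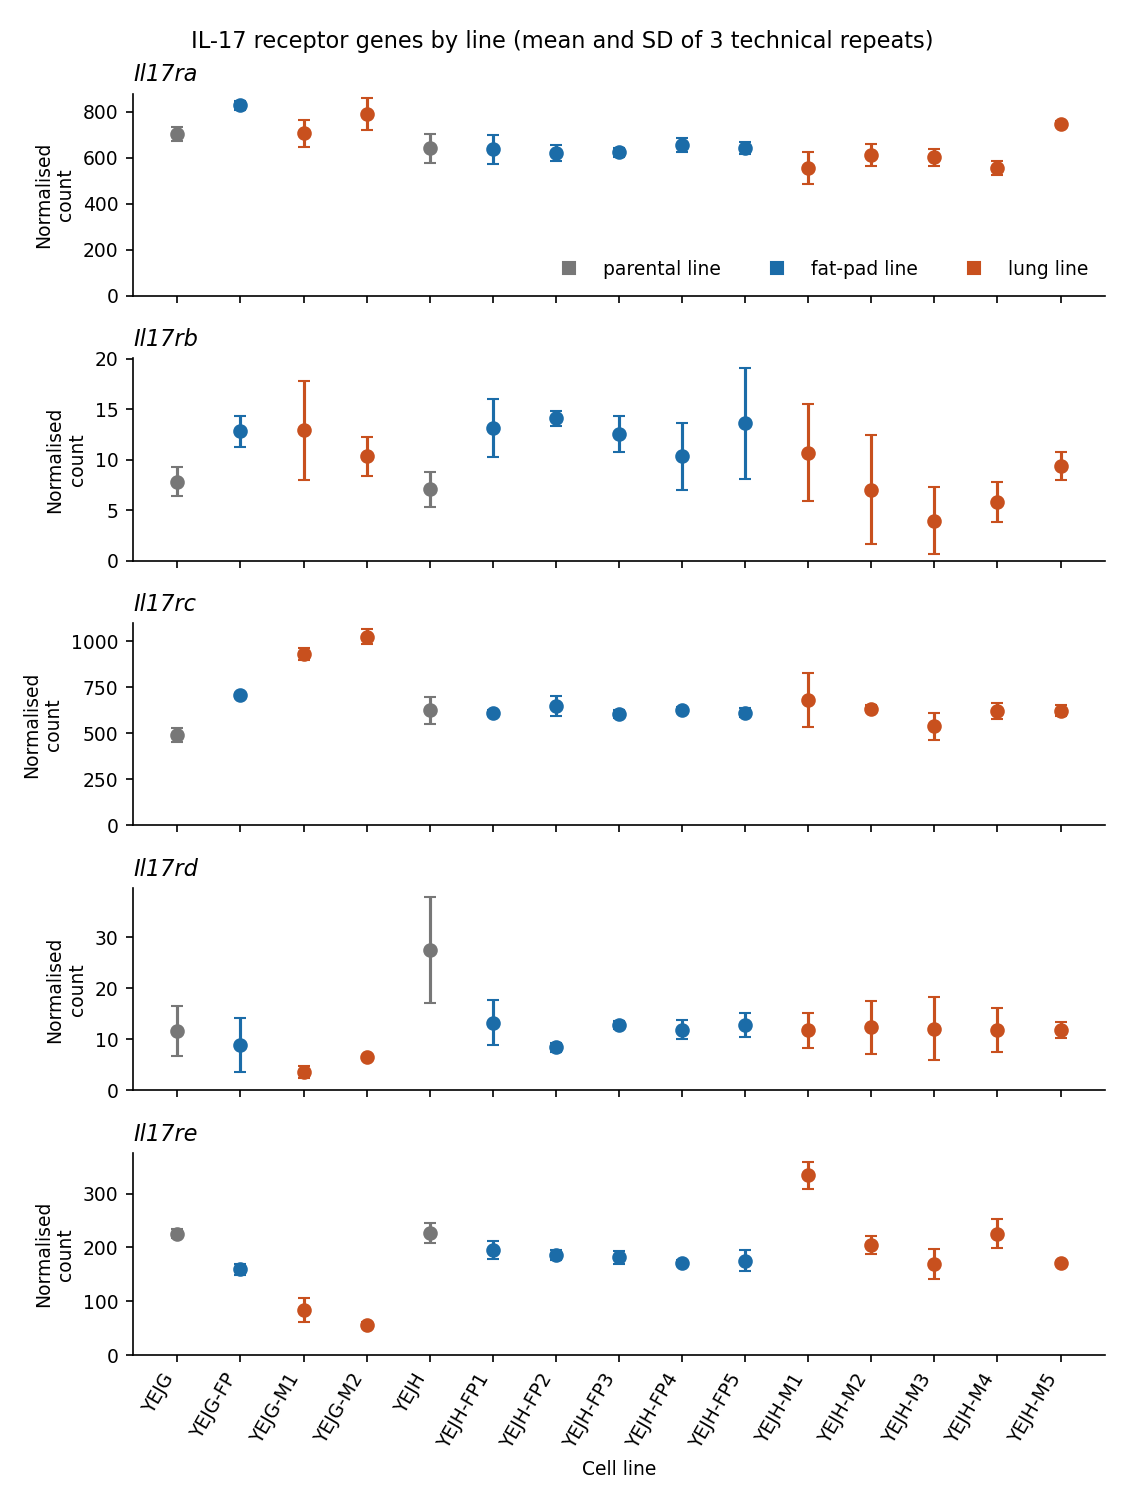
The 5 IL-17 receptor genes in each of the 15 lines, as TMM-normalised counts (linear axes from 0); points are means and bars the SD of 3 technical repeats, coloured by site. Il17rc is highest (928 and 1024) and Il17re lowest (84.7 and 56.3) in YEJG-M1 and YEJG-M2.

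The first comparison asked whether lung lines differ from fat-pad lines. In 7 lung against 6 fat-pad lines, 0 of 15056 genes passed the edgeR quasi-likelihood test (percent called 0; 784 had an unadjusted p under 0.05; DESeq2 called 21 and limma with libraries kept apart 77), and 0 of 5 receptors were called by any of these tools. Il17ra, the shared chain, had 652 ± 94.4 (SD, n = 7) and 667 ± 79.6 (n = 6) normalised counts in lung and fat-pad lines (log2 fold change -0.04 ± 0.10 SE, edgeR adjusted p = 0.96). Il17rc, the partner for IL-17A and IL-17F, had 721 ± 181 and 634 ± 38.4 (log2 fold change 0.18 ± 0.14, edgeR adjusted p = 0.91). For Il17rd the log2 fold change was -0.19 ± 0.26 and for Il17re -0.01 ± 0.31 (edgeR adjusted p = 0.92 and 0.996), and these misses do not show that the levels are alike.

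Il17rb had lower values in lung lines. The lowest, median and highest lines were 3.96, 9.35 and 12.9 normalised counts in the lung group, and 10.3, 13 and 14.1 in the fat-pad group. The groups overlapped, with 4 of 7 lung lines below every fat-pad line. The log2 fold change was -0.57 ± 0.24 and did not pass the threshold (edgeR adjusted p = 0.91, unadjusted p = 0.034). An exact two-sided permutation test of the line means over 1716 splits, run for each of 5 receptors, gave an unadjusted p = 0.0128 for Il17rb and 0.356 to 0.999 for the others. These values are not corrected for the 5 receptors tested and are not counted as calls. The libraries held only 2 to 20 reads each on this gene, and part of its exons overlap Actr8.

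Within YEJH alone, where 5 lung lines face 5 fat-pad lines, Il17rb again had lower values in the lung lines and did not pass. Its YEJH fat-pad lines had 13.2, 14.1, 12.5, 10.3 and 13.6 normalised counts (FP1 to FP5) and its lung lines 10.7, 7.02, 3.96, 5.79 and 9.35 (M1 to M5). Only YEJH-M1 reached into the fat-pad range. The log2 fold change was -0.80 ± 0.24 (edgeR adjusted p = 0.36), against 7 of 14990 genes called (0.0467%, with 0.00667% higher and 0.04% lower). With libraries kept apart and line as a random effect, limma gave -0.92 (adjusted p = 0.038), and -0.93 (adjusted p = 0.046) with library run as a covariate, and the call was lost with the repeat number as a block (-0.88, adjusted p = 0.054). Actr8 ran from 534 to 571 normalised counts in these fat-pad lines and from 533 to 583 in the lung lines. Chdh ran from 374 to 403 in the fat-pad lines and from 278 to 388 in the lung lines, so that its lung values also reached lower, and its part in the Il17rb values was not tested.

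None of the other receptors passed between sites in YEJH, which does not show that their levels are alike. Il17ra averaged 614 ± 77.3 in lung and 635 ± 13.9 in fat-pad lines (n = 5 each, log2 fold change -0.06 ± 0.07, edgeR adjusted p = 0.88), with YEJH-M5 at 744 and the other lung lines at 555 to 610. Il17rc averaged 619.7 ± 52.0 and 620.0 ± 17.9 (log2 fold change -0.02 ± 0.05, adjusted p = 0.96), and Il17rd 12 ± 0.248 and 11.8 ± 1.98 (0.00 ± 0.14, adjusted p = 0.9997). Il17re had 221 ± 67.1 and 182 ± 9.46 (0.27 ± 0.17, adjusted p = 0.77), the lung mean being raised by YEJH-M1, at 334 ± 25.8 against 170 to 225 in the other lung lines. Il17b and Il17re therefore peaked in different lines, YEJH-M2 and YEJH-M1.

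**Figure D3:**
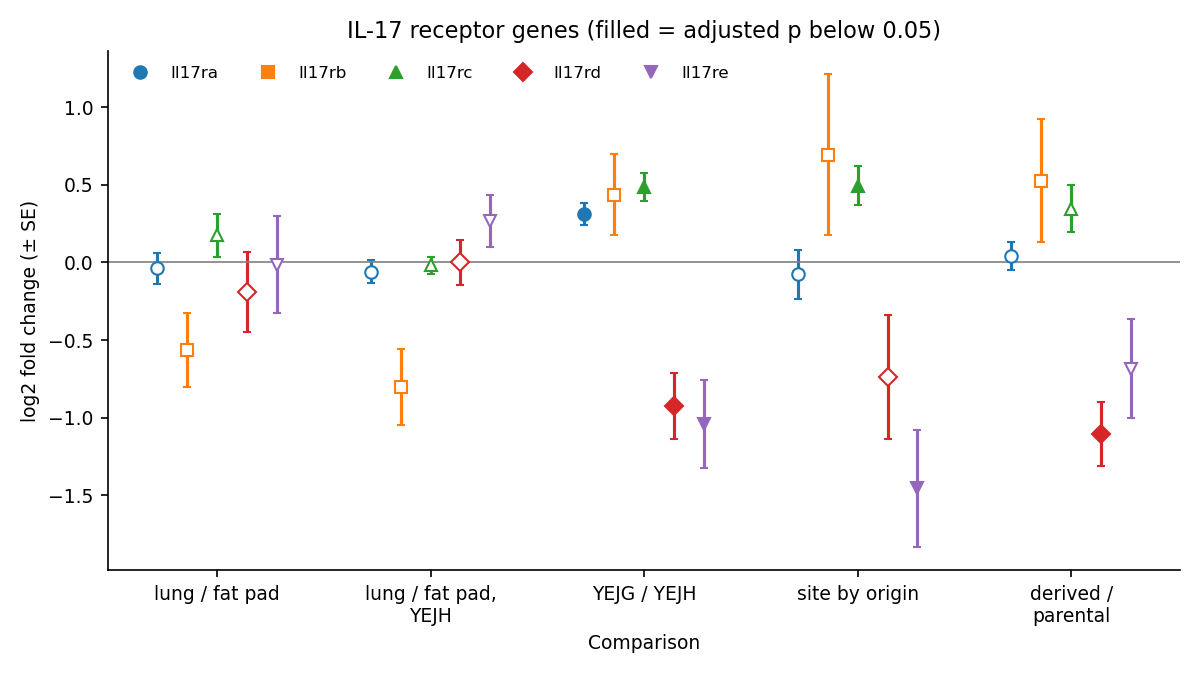
Log2 fold change of each receptor gene in the 5 comparisons (vertical axis; bars are SE from the edgeR quasi-likelihood fit on counts summed per line), with filled symbols for an adjusted p below 0.05. Filled symbols appear for 4 receptors by parental origin, 2 for site by origin and 1 for derived against parental lines.

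The second question was whether lines derived from the 2 parental lines differ. With site in the model, 4 of 5 receptors differed between 3 YEJG-derived and 10 YEJH-derived lines, beside 40.8% of 15815 genes called (19.2% higher and 21.6% lower in YEJG-derived lines), so a high share of calls was the background here. Il17ra and Il17rc were higher in YEJG-derived lines and Il17rd and Il17re lower. Il17rc ran from 706 to 1024 normalised counts in YEJG-derived lines and from 538 to 682 in YEJH-derived lines, with no overlap (log2 fold change 0.49 ± 0.09, edgeR adjusted p = 0.00096). Il17ra was 775 ± 62.3 (n = 3) against 624 ± 53.6 (n = 10), with YEJH-M5 inside the YEJG range (0.31 ± 0.07, edgeR adjusted p = 0.0042).

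Il17re, the partner chain for IL-17C, was 160 in YEJG-FP, 84.7 in YEJG-M1 and 56.3 in YEJG-M2, whereas YEJH-derived lines ran from 170 to 334. The groups did not overlap, and the log2 fold change was -1.04 ± 0.28 (edgeR adjusted p = 0.011). The call was lost without YEJG-M1 (-0.90, adjusted p = 0.066) and without YEJG-M2 (-0.73, adjusted p = 0.067). Il17rd was 6.32 ± 2.63 against 11.9 ± 1.33 (-0.92 ± 0.21, edgeR adjusted p = 0.0041), with YEJG-FP (8.83) above YEJH-FP2 (8.41). Il17rb did not pass (0.44 ± 0.26, adjusted p = 0.21). With library totals in place of TMM scaling the gene calls moved from 3032 higher and 3421 lower to 3823 higher and 2846 lower, and the 4 receptors kept their directions and calls.

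The parental lines themselves, which are 1 line of each origin and were not in this test, did not show all of these differences. Parental YEJG and YEJH had 490 and 624 normalised counts of Il17rc, the reverse order, and 226 each of Il17re, against 702 and 641 of Il17ra and 11.7 and 27.4 of Il17rd.

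Luminal and fibroblast markers differed between the derived lines too, beside 40.8% of all genes called. All 5 luminal markers were lower in YEJG-derived lines (median log2 fold change -1.51), with summed levels of 2778 to 4098 CPM against 5383 to 7062 CPM in YEJH-derived lines. Of 3 basal markers tested 0 passed (median log2 fold change -0.57). The 3 fibroblast markers tested were higher (median log2 fold change 2.47), with 5.45 to 52.6 CPM against 2.56 to 6.09 CPM for the summed list of 5, of which Lum was at 0 in all derived lines. Parental YEJG and YEJH did not share these differences, at 5969 and 5483 CPM for the luminal and 1.90 and 3.11 CPM for the fibroblast list. Their part in the receptor differences was not tested.

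Of 23 listed signalling genes, all tested, 6 were higher and 9 lower in YEJG-derived lines (median log2 fold change -0.17, against 0.00 over all genes), beside 19.2% of all genes higher and 21.6% lower. Whether the list differed by origin more often than other genes was not tested. The adaptor Traf5 had 15 normalised counts in YEJG-FP, 111 and 101 in YEJG-M1 and YEJG-M2, and 8.82 to 21.5 in YEJH-derived lines (2.23 ± 0.44, edgeR adjusted p = 0.0016), and 3.34 and 6.90 in parental YEJG and YEJH. Tab1, a partner of the kinase TAK1 (0.55 ± 0.13), the adaptor Traf2 (0.28 ± 0.05) and the kinase Chuk (0.25 ± 0.06) were also higher. Arid5a, which stabilises cytokine transcripts, was lower at 299 to 503 against 648 to 805 normalised counts (-0.87 ± 0.11, adjusted p = 6.0e-05). Traf4, an inhibitor of IL-17 signalling (-0.59 ± 0.10), the kinase Ikbkb (-0.55 ± 0.06) and Tab3 (-0.51 ± 0.09) were lower as well. Traf3ip2, which encodes Act1 and is named here after its values were seen, was lower (-0.41 ± 0.06). None of these 9 calls was lost in any alternative setting. Among the other 6 called signalling genes, the call was lost in 10 of 27 settings for Traf6, 5 for Cebpb, 4 for Tab2 and 1 for Usp25.

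Of 20 listed IL-17 target genes, 16 passed the filter on low counts, and 2 were higher and 5 lower in YEJG-derived lines (median log2 fold change -0.49), beside the same 40.8% of all genes called. The monocyte chemokine Ccl2 had 250 to 496 normalised counts in the 3 YEJG-derived lines against 2.45 to 56.6 (3.86 ± 0.48, edgeR adjusted p = 6.8e-05), and Ccl7 20.2 to 58.9 against 0.316 to 10.1 (3.09 ± 0.47, adjusted p = 0.00025). The neutrophil growth factor Csf3 had 92.0 to 208 against 539 to 914 (-2.19 ± 0.23, adjusted p = 2.6e-05), and Lcn2, a siderophore-binding protein, 12.1 to 22 against 24.9 to 80.6 (-1.50 ± 0.32, adjusted p = 0.0026). Parental YEJG and YEJH had 4.25 and 6.27 normalised counts of Ccl2, 0 and 0.282 of Ccl7, and 593 and 493.3 of Csf3, so that none of the 3 had the order seen in the derived lines. Over the 7 called targets 3 had the same order in the parental lines and 4 did not, and over the 15 called signalling genes 11 did and 4 did not. Lcn2, for example, had 4.63 and 7.60 in parental YEJG and YEJH. Each order compares single lines, and some pairs were near the floor (Tnf, Ccl7) or nearly equal (Mmp13, 6.85 and 6.76). The share with the same order over all called genes was not computed, so these counts are a description only. Tnf had 4 reads over all YEJG-derived lines and 112 over YEJH-derived lines (adjusted p = 0.013), a call lost without YEJG-FP or YEJG-M2 (adjusted p = 0.051 and 0.060). Mmp13 was lower (-1.31 ± 0.43, adjusted p = 0.029), and its call was lost without YEJG-M1 (0.11), without YEJG-M2 (0.12), without technical repeat 3 (0.065) and in either run alone (0.091 and 0.052). In the lung against fat-pad comparisons none of the signalling or target genes passed in the main edgeR fits, in all lines or in YEJH. Within YEJH, 2 of 23 other settings called 1 signalling gene and 3 called 1 target.

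**Figure D4:**
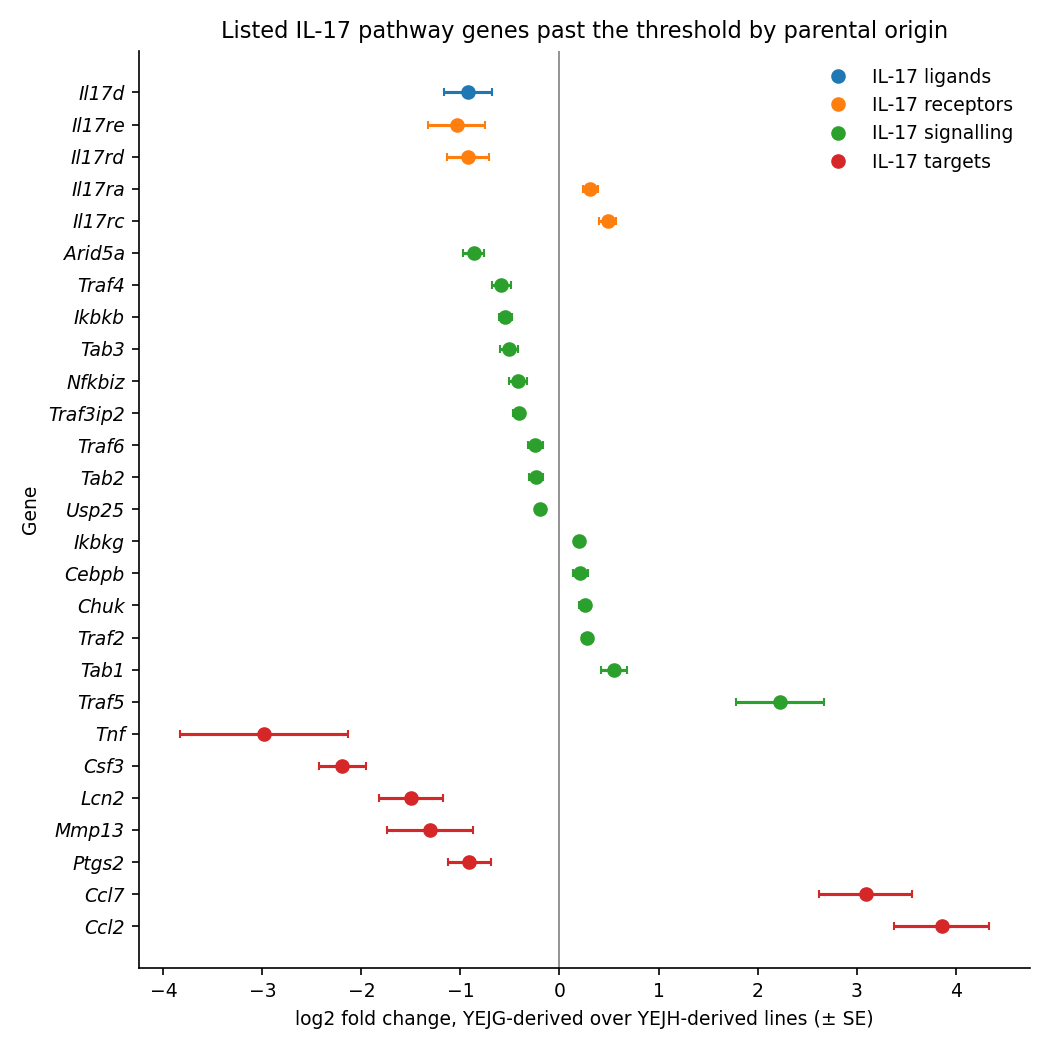
Listed IL-17 ligand, receptor, signalling and target genes past the threshold between YEJG-derived and YEJH-derived lines (horizontal axis, log2 fold change with SE; positive values are higher in YEJG-derived lines). Ccl2 (3.86) and Csf3 (-2.19) show the spread among targets, and Il17rc (0.49) and Il17re (-1.04) that among receptors.

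The third comparison asked whether the lung against fat-pad difference depended on origin. The YEJG fat-pad arm is 1 line, YEJG-FP, which is assumed to vary like the lines of the other groups, so every interaction rests on it. The interaction passed for 2 of 5 receptors, Il17rc and Il17re, beside 13.3% of 17042 genes called (6.74% with a positive and 6.61% with a negative interaction). Il17rc was 706 in YEJG-FP and 928 and 1024 in YEJG-M1 and YEJG-M2, a ratio of 1.38 between means, while in YEJH the ratio of lung to fat-pad means was 1.00 (interaction 0.50 ± 0.13 log2, edgeR adjusted p = 0.021). Il17re went the other way, from 160 to 84.7 and 56.3 in YEJG, a ratio of 0.442, against 1.21 in YEJH (interaction -1.46 ± 0.38, edgeR adjusted p = 0.023). Both calls were lost without YEJG-M2 (adjusted p = 0.059 and 0.074), and that of Il17rc also without technical repeat 2 (0.061) and in run B alone (0.084). The neighbouring genes thus took opposite directions in the same YEJG lung lines, beside the upstream sequences shown above. Il17ra (-0.08 ± 0.16), Il17rb (0.69 ± 0.52) and Il17rd (-0.74 ± 0.40) did not pass (edgeR adjusted p = 0.80, 0.44 and 0.26).

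The ligand Il17d followed the same contrast (interaction -1.39 ± 0.28, edgeR adjusted p = 0.0068; 0.15 in run A alone). Among signalling genes 1 of 23 was higher, Traf5 (3.11 ± 0.48, adjusted p = 0.0018), and 1 lower, Traf4 (-0.48 ± 0.15, adjusted p = 0.048), the latter lost when any of several single lines was left out (adjusted p up to 0.13). Among 16 targets tested, the matrix proteases Mmp9 (2.59 ± 0.61, adjusted p = 0.016) and Mmp3 (2.22 ± 0.59, adjusted p = 0.027) had positive interactions, and Csf3 (-1.12 ± 0.30, adjusted p = 0.029) and the chemokine Ccl20 (-2.58 ± 0.79, adjusted p = 0.0499) negative ones. Without YEJG-M1 the adjusted p was 0.077 for Mmp3, 0.11 for Csf3 and 0.12 for Ccl20. The call of Ccl20 was lost in 16 of 25 settings, that of Csf3 also in run A alone (0.077) and without technical repeat 3 (0.053), and that of Mmp3 also in run B alone (0.10). Luminal markers moved in the same lines, with 3 of 5 lower by this test, and Epcam was at 347 CPM in YEJG-FP, 131 in YEJG-M1 and 203 in YEJG-M2. Of 3 basal markers tested 1 was lower, Krt14 (-1.37 ± 0.36). Of 3 fibroblast markers tested (median interaction 2.54) 1 was higher, Pdgfra, at 3.10 CPM in YEJG-FP, 43.3 in YEJG-M1 and 9.22 in YEJG-M2. Whether this bears on Il17rc and Il17re was not tested.

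The last comparison set the 13 derived lines against the 2 parental lines, with origin in the model. It called 1 of 5 receptors, Il17rd, beside 7.77% of 16361 genes (3.55% higher and 4.23% lower). Il17rd had 27.4 ± 10.4 normalised counts in YEJH and 11.7 ± 4.84 in YEJG (SD of repeats), against 8.41 to 13.3 in the YEJH-derived lines and 3.58 to 8.83 in the YEJG-derived lines. Within each origin the parental line was above every derived line, although the groups overlapped when pooled. The log2 fold change was -1.11 ± 0.21 (edgeR adjusted p = 0.0074), on 2.42 to 38.1 normalised counts per library. The call was lost without YEJH (-0.89, adjusted p = 0.11), without YEJG (-1.25, adjusted p = 0.0502) and in run A alone (-0.89, adjusted p = 0.059).

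Il17rc was lowest of all lines in parental YEJG (490 ± 39.6), with 624 ± 71.1 in parental YEJH, and its fold change did not pass (0.35 ± 0.15, edgeR adjusted p = 0.18). It was 0.0096 (adjusted p = 0.99) without YEJG and 0.84 (adjusted p = 0.0052) without YEJH, and in limma with libraries kept apart it was 0.40 (adjusted p = 0.0061). Il17re was 226 in both parental lines (log2 fold change -0.68 ± 0.32, edgeR adjusted p = 0.21; limma -0.57, adjusted p = 0.018). It was -0.16 without YEJG and -1.20 without YEJH (adjusted p = 0.94 and 0.078). Il17ra (0.04 ± 0.09) and Il17rb (0.53 ± 0.40) did not pass (adjusted p = 0.84 and 0.47). With library totals the called genes moved from 580 higher and 692 lower to 730 higher and 502 lower, and Il17rd stayed lower. The count of all called genes fell to 141 without YEJG.

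Among the listed pathway genes, derived lines were higher for Lcn2 (2.37 ± 0.44, edgeR adjusted p = 0.0069; 0.065 without YEJH) and Ccl7 (1 read in the 2 parental lines together, against 406 in the derived lines, adjusted p = 0.024; 0.57 without YEJG, 0.065 in run B alone, 0.057 without technical repeat 1 and 0.052 without technical repeat 2). Traf4 (-0.49 ± 0.11, adjusted p = 0.017; 0.46 without YEJG) and Arid5a (-0.49 ± 0.14, adjusted p = 0.044) were lower and the deubiquitinase Usp25 was higher (0.20 ± 0.06, adjusted p = 0.041). The calls of Arid5a and Usp25 were lost when any of many single lines was left out (adjusted p up to 0.72 and 0.27, both without a parental line). Over the lists, 1 of 23 signalling genes was higher and 2 were lower, and of 16 targets tested 2 were higher and 0 lower. The shares over all genes were 3.55% higher and 4.23% lower. The epithelial markers Krt14 (-1.75) and Epcam (-0.98) also fell, while the other 4 of 5 luminal and 2 of 3 basal markers tested did not pass. Of 3 fibroblast markers tested (median log2 fold change 1.47) 1 was higher, Col1a2 (3.13 ± 0.89). The part of these markers was not tested. The comparisons reuse the same lines, and their results are therefore not independent of each other.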

How the data were processed

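PolyA RNA of 15 PyMT+ lines (3 technical repeats each, 45 libraries) was measured by RNA-seq. The deposited values are unnormalised per-gene read counts; the submitters' processing notes name FastQC, HISAT2, SAMtools 1.2, HTSeq and the build GRCh38, although the identifiers are mouse, and the mouse build and the strand setting are not given in the sources used here. The 5 class rows (31.6% to 43.3% of reads per library) were left out. Of 54838 identifiers, 50764 matched GRCm39 (GENCODE vM39), used for names, positions and lengths. One YEJG-M1 library whose name carries another line was placed by its title.

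Counts were summed per line, filtered (filterByExpr), TMM-scaled and tested with edgeR 4.0.16 quasi-likelihood, Benjamini-Hochberg over all genes, threshold 0.05. Alternatives used DESeq2 1.42.0, limma 3.58.1, other scalings, single runs and omissions. The fit was also run on simulated data, and no result above rests on that run, whose outcome is not given here. Python 3.11.15 and R 4.3.3 were used. Members and gene lists were chosen with earlier results of these data known. Listed genes were named if called, up to 4 per list and direction by size.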

Additional observations from a re-analysis of the deposited data

Results flagged for a closer look

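Among the 6 fat-pad lines Il17ra was far from the others in YEJG-FP, at 827 normalised counts with the nearest line at 653, a gap of 0.841 of the group's range. Among the 5 YEJH fat-pad lines Il17rd was apart in YEJH-FP2, at 8.41 with the nearest at 11.9, a gap of 0.713 of the range. With 24 such groups of lines examined, chance alone gives about 1.2 flags of this kind, and 2 were found. YEJG-FP is also the only fat-pad line of its origin.

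The lung against fat-pad difference differed between origins by a test of the interaction for Il17rc (0.50, log2) and for Il17re (-1.46, log2), the values given with their errors above.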

How the results depend on the processing

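Of 655 results, each 1 receptor in 1 alternative setting of 1 of the 5 comparisons, 613 kept direction and side of the threshold, 9 lost a call, 10 passed a threshold not passed before (1 of these on the unadjusted exact p of Il17rb between sites, which is no call) and 23 turned the sign of a difference that was never called. Most of the 613 were differences that the main fit did not call. The 9 lost calls fell on Il17rc, Il17rd and Il17re. The mean of Il17b in lung lines went from 32.8 to 22.6 without YEJH-M2. In lung against fat-pad lines the genes called went from 0 to 21 (DESeq2), 77 (limma, also with run as covariate), 70 (limma, replicate block on the repeat number), 1 (run A) and 3 (origin as covariate), and from 0 to 1 on omission of a line or repeat. In YEJH they went from 7 to 156 (DESeq2), 319, 318 and 310 (limma: libraries apart, run as covariate, repeat block), 0 (line number as replicate block) and from 2 to 110 on omission, the last without YEJH-M5; receptors called went from 0 to 1 in limma and with run as covariate, where the repeat block gave Il17rb an adjusted p of 0.054. For site by origin the genes were 3436, 3447 and 3518 in limma (from 2275), and receptors 1 in run B and 0 to 2 on omission. For derived against parental lines the genes were 2027 (DESeq2), 2481, 2563 and 2499 (limma), 685 (run B) and 141 to 2281 on omission, with 3 receptors called in limma, 0 in run A and 0 to 1 on omission. The sign turned for Il17ra between sites in run B (0.0050) and by omission (-0.087 to 0.029), for Il17re between sites by omission (-0.24 to 0.15, with 1.6e-05 without YEJH-M3), for Il17rc in YEJH by omission (-0.061 to 0.030), for Il17rd in YEJH with library totals (-0.0092), limma (-0.011), the repeat block (-0.019), run as covariate (-0.015), run A (-0.067) and by omission (-0.10 to 0.12), for Il17ra in site by origin by omission (-0.19 to 0.024), and for Il17ra against parental lines in run A (-0.034) and by omission (-0.025 to 0.13). The cause was not tested. Same-numbered YEJH fat-pad and lung lines did not deviate together (mean r = -0.026), nor did repeats of the same number (r = 0.00054), while libraries of the same run did (r = 0.43); 16 of 45 libraries correlated best with their own repeat number. Il17rb and Il17rd, with few reads per library, and Il17b outside the lung lines are limited by depth.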
